A study of Mus musculus with 69 samples.

Results

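Ribosome-bound mRNA of parvalbumin (PV) interneurons was compared with that of Camk2a neurons in the primary visual cortex (V1) of wild-type (WT) mice. Libraries were chosen from the labels by cell class, genotype and area, which gave 10 PV and 8 Camk2a libraries, 18 of 69 in the series, each from a different animal. The PV mice carried a PV-Cre driver and the Camk2a mice a Camk2a-Cre driver, all with both copies of Rpl22 in the HA form (Rpl22HA/HA), aged 70 to 100 days. All 18 libraries were of batch 1 by label, although the columns of every library in the count table, of either batch, carry the prefix B2. By label, the PV group held 5 females and 5 males and the Camk2a group 6 females and 2 males. Totals of estimated counts averaged 36110880 ± 2239693 in PV libraries and 40528243 ± 2354665 in Camk2a libraries (SD, n = 10 and 8).

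RiboTag mice make an HA-tagged form of RPL22, a protein of the large ribosomal subunit, in those cells that express Cre, so that an anti-HA antibody recovers the ribosomes of these cells together with the mRNA on them. RNA of untagged cells is carried along to some degree. PV interneurons are fast-spiking inhibitory cells that release GABA onto the soma and the start of the axon of pyramidal cells. They fire in long, rapid trains, have a high demand for energy and are often wrapped in a perineuronal net. Camk2a-Cre is active mainly in pyramidal cells, which release glutamate. In such bulk pull-downs, fewer cells of a type and less RNA per cell cannot be told apart, and every value is a share of its library, not an amount per cell.

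Several libraries stood apart. Camk2a libraries of animals C18 and C19 held more PV marker mRNA than the other 6, with summed PV marker levels up to 2098 CPM (counts scaled to the size of the library) against a median of 1193 CPM over all 8. Gad1 lay at 354 and 403 CPM in C18 and C19, and at no more than 29.3 CPM in the other 6 Camk2a libraries. For named genes whose log2 fold change moved most when these libraries were left out, that value is given too, singly or as a range. On the first principal component, with 70.8% of the variance, PV libraries lay between 66.3 and 82.9 and Camk2a libraries between -103.5 and -72.6, with C18 and C19 nearest to PV. On the second, with 6.6% of the variance, PV library P22 lay lowest at -68.4. The sex genes Xist and Ddx3y went against the label in 2 Camk2a libraries (C16 labelled male, C23 labelled female). Log2 CPM of Xist and Ddx3y was 3.21 and -5.3 in C16, and -2.02 and 5.28 in C23. Neither gene passed edgeR's quasi-likelihood test between classes, in a fit that held both sexes and used sex as labelled. The log2 fold change of PV over Camk2a was 1.45 (adjusted p = 0.217) for Xist and -2.63 (adjusted p = 0.198) for Ddx3y. Even so, Xist lay at 147 to 395 CPM in the female PV libraries. In the Camk2a libraries that were female by these 2 genes it lay at 9.14 to 62.2 CPM. A difference within females was not tested.

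Of 16330 genes tested, 12618 (77.3%) passed an adjusted p of 0.05. Unless another test is named, adjusted p-values come from edgeR's quasi-likelihood test, with a term for sex, and are Benjamini-Hochberg adjusted over all genes. PV libraries were higher in 6501 genes (39.8%) and lower in 6117 (37.5%). With a fold change of at least 2, 3045 genes (18.6%) were higher and 2317 (14.2%) lower, and 348 and 364 genes passed 8-fold. The median log2 fold change (PV over Camk2a) of all genes was 0.03 and the median size 0.60. Counts of list members are to be read against these shares, since most genes passed in one direction or the other. Genes whose libraries did not overlap between the classes were common on many lists, with 30 of 39 voltage-gated potassium channel genes. Among 79 cytosolic ribosomal protein genes there were 4. Their share over all genes was not counted, so lack of overlap is not to be read as particular to the genes named below. Pearson correlations of log2 CPM were 0.9616 to 0.9882 among PV pairs and 0.9776 to 0.9887 among Camk2a pairs, against 0.8790 to 0.9253 between classes.

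To show the DNA upstream of genes at both ends of this range, the sequences of Pvalb, which gives the PV class its name, of Syt2, a calcium sensor of fast release, and of Sv2b, a vesicle protein that was lower in PV, are printed here. Each is the 250 bases before the start site in RefSeq (GRCm38.p6, the assembly behind mm10), written in the direction of transcription. Coordinates are chr15:78206401-78206650 (minus strand) for Pvalb, chr1:134646362-134646611 (plus strand) for Syt2 and chr7:75309263-75309512 (minus strand) for Sv2b. Capitals mark matches to the motifs searched on both strands. Estrogen-related receptors bind TCAAGGTCA. Homeodomain factors share the core TAATTA. Proneural factors bind the E-box CAGATG. The TATA box was searched as TATAAA, and the MEF2 element, which can overlap it, by its usual letters. The windows were picked after the matches were known.
Pvalb: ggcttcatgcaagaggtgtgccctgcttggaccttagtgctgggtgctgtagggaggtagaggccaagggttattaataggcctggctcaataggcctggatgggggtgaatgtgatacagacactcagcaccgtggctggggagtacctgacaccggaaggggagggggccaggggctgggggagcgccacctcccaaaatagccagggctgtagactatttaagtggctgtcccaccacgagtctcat
Syt2: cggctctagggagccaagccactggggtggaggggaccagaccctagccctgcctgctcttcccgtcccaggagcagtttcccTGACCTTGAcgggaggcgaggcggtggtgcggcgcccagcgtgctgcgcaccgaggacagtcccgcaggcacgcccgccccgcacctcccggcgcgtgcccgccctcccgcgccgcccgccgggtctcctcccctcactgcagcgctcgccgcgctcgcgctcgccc
Sv2b: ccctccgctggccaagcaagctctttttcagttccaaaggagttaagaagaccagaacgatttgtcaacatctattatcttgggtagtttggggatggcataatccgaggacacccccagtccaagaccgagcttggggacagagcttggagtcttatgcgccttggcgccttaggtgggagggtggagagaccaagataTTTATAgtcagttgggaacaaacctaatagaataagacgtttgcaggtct

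None of these letters occurred in the Pvalb window. The Syt2 window held the estrogen-related receptor element on the opposite strand, starting 167 bases before the start site, and the Sv2b window a reversed TATA box starting 50 bases before it. TCAAGGTCA occurred in 0.332% of windows of genes at least 2-fold higher in PV, 0.427% of those at least 2-fold lower and 0.26% of all 11542 windows matched. TAATTA occurred in 3.32%, 2.68% and 2.51% of the same sets, CAGATG in 13.2%, 11.8% and 10.4%, TATAAA in 8.57%, 7.68% and 6.58%, and the MEF2 element in 0.664%, 0.67% and 0.433%. These shares are descriptions with no test. Median GC content of the windows was 58.8% in the higher set, 60.0% in the lower set and 60.0% in all. The printed windows had 58.4% (Pvalb), 76.0% (Syt2) and 48.8% (Sv2b).

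Markers of PV cells separated the libraries of the 2 classes. All 14 PV marker genes were higher in PV libraries at least 2-fold, with a median log2 fold change of 4.42 (5.49 without C18 and C19), and in none did a PV library overlap a Camk2a library. Pvalb (chr15:78191114-78206400), whose product buffers calcium in the terminal, lay at 158, 423 and 709 CPM (lowest, median and highest) in PV libraries, against 4.03, 5.99 and 62.4 CPM in Camk2a libraries. Its log2 fold change was 4.65 (SE 0.739, adjusted p = 2.67e-05), and 6.26 without C18 and C19. P3 held the lowest Pvalb level among PV libraries and P22 the highest, and the highest Camk2a library, C18, was still below P3. Tac1, the precursor of substance P, lay at 32.1, 55.7 and 98.5 CPM in PV libraries, against 0.415, 0.809 and 8.32 CPM in Camk2a libraries (log2 fold change 4.76, and 6.35 without C18 and C19). Lhx6, a transcription factor of interneurons born in the medial ganglionic eminence, lay at 191, 223 and 247 CPM, against 1.48, 2.51 and 22.8 CPM (5.09, and 6.54). Erbb4, the neuregulin receptor, lay at 508, 618 and 847 CPM, against 3.24, 3.97 and 78.8 CPM (5.33, and 7.38). For each of these genes the highest Camk2a value came from C18 or C19.

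**Figure D1:**
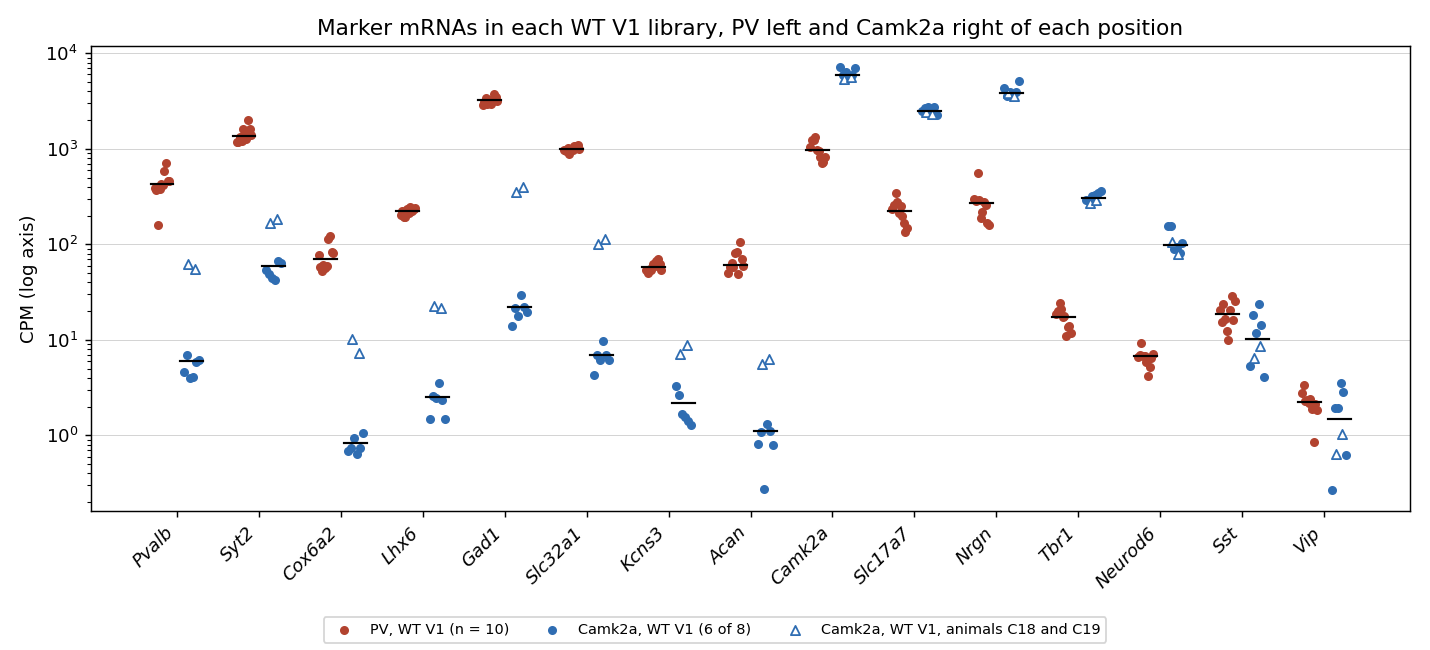
CPM on a log axis of 15 marker genes in each WT V1 library; PV libraries are red and stand left of the Camk2a libraries, which are blue, with animals C18 and C19 as open triangles and black bars at the group medians. The first 8 genes were higher in every PV library, the next 5 lower in every PV library, and Sst and Vip overlapped.

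Genes shared by all cortical interneurons were higher as well: 22 of 24 tested passed, none was lower, and the median log2 fold change was 4.74 (5.76 without C18 and C19). The other 2, Zeb2 and Npas1, had log2 fold changes of 0.14 and 0.57. Gad1, which makes most of the GABA in the brain, lay at 2860, 3214 and 3730 CPM in PV libraries, against 14.1, 21.9 and 403 CPM in Camk2a libraries (log2 fold change 5.24, SE 0.871, adjusted p = 4.27e-05; 7.26 without C18 and C19). Gad2, the second GABA-making enzyme, lay at 427, 516 and 629 CPM, against 3.59, 7.83 and 72.2 CPM (4.86, and 6.20). Slc32a1, which loads GABA into vesicles, lay at 892, 998 and 1092 CPM, against 4.27, 6.93 and 114 CPM (5.30, and 7.21). In these 3 genes no PV library overlapped a Camk2a library. Of the 11 tested genes of GABA synthesis, packaging and uptake, 9 were higher and 2 lower. Abat, which breaks GABA down, rose (log2 fold change 2.97), as did Aldh5a1 of the same breakdown path (2.37), the glutamine transporter Slc38a1 (1.66), Slc6a13 (2.00, at or below 1.21 CPM in every library) and Glul, which makes glutamine (0.56). Slc6a11, a GABA transporter known mainly from astrocytes, fell (-0.80).

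Excitatory marker genes went the other way. Of 21 tested, 20 were lower in PV libraries and none higher, with a median log2 fold change of -3.66 (-3.70 without C18 and C19), and Emx2 did not pass (-0.65, adjusted p = 0.0724). Slc17a7 (chr7:45163949-45176142), the vesicular glutamate transporter of most cortical pyramidal cells, lay at 135, 223 and 345 CPM in PV libraries, against 2252, 2485 and 2762 CPM in Camk2a libraries. Its log2 fold change was -3.46 (SE 0.141, adjusted p = 1.00e-13). Camk2a itself, whose promoter drives Cre in the Camk2a mice and which encodes a kinase of synaptic plasticity, lay at 713, 967 and 1332 CPM, against 5390, 5916 and 7169 CPM (-2.59). Nrgn, which binds calmodulin in dendrites, lay at 160, 271 and 556 CPM, against 3451, 3852 and 5126 CPM (-3.81). The transcription factors Tbr1 (-4.14) and Neurod6 (-4.04) were lower in PV with no overlap of libraries. The summed excitatory markers lay at 2068 to 3484 CPM in PV libraries, against 17551 to 21104 CPM in Camk2a libraries, so PV libraries held such mRNA at a lower level.

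Glutamate packaging, uptake and metabolism did not follow the excitatory markers as a whole: of 12 genes, 7 were higher in PV and 4 lower. The median log2 fold change was 0.43, and the shares of all genes were 39.8% and 37.5%. Slc17a6, the second vesicular glutamate transporter, was lower like Slc17a7 (-3.98), at 1.50, 2.47 and 4.27 CPM in PV libraries, against 35.4, 43.2 and 52.5 CPM in Camk2a libraries. Slc17a8, the third, did not pass (-0.31, adjusted p = 0.405) and stayed at or below 0.668 CPM. The aspartate aminotransferases Got1 (1.06) and Got2 (0.86) and glutamate dehydrogenase Glud1 (1.02) were higher without overlap, as were the neuronal glutamate carrier Slc1a1 (0.57) and the glutamine transporter Slc38a2 (0.87). The glutaminase Gls2 was 0.29 higher, with overlap.

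Cortical layer markers, most of which name layers by their pyramidal cells, were lower for 23 of 30 and higher for 4, with a median log2 fold change of -1.71. Cux2, of the upper layers, lay at 164, 172 and 188 CPM in PV libraries, against 213, 331 and 369 CPM in Camk2a libraries (-0.85, adjusted p = 3.47e-09). Rorb, of layer 4, lay at 11.8, 22.7 and 32.0 CPM, against 82.6, 141 and 223 CPM (-2.63). Fezf2, a factor of deep-layer output neurons, lay at 4.15, 6.97 and 11 CPM, against 20.4, 53.2 and 76.5 CPM (-2.75). In none of the 3 did the classes overlap. Il1rapl2 (1.74) and Cdh13, an adhesion molecule (1.36), rose at least 2-fold in PV.

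Markers of other interneuron types did not move as a block. Of 21 tested, 10 were higher in PV, 6 lower and 5 did not pass, beside 39.8% higher and 37.5% lower of all genes. Sst, the peptide of the other large class of medial eminence interneurons, lay at 10.0, 18.6 and 28.6 CPM in PV libraries, against 4.08, 10.2 and 24.0 CPM in Camk2a libraries (log2 fold change 0.61, adjusted p = 0.0815). Vip lay at 0.863, 2.23 and 3.34 CPM, against 0.268, 1.48 and 3.53 CPM (0.47, adjusted p = 0.273). Both overlapped widely between the classes. Calb2, a calcium-binding protein of Vip-type cells, was higher in PV at very low level (0.173 to 1.44 CPM, against 0.0488 to 0.469 CPM in Camk2a; 1.58, adjusted p = 0.0015), with overlap. Npy, a peptide found in several interneuron types, lay at 23.5, 30.4 and 50.5 CPM, against 0.854, 2.16 and 5.43 CPM (3.55), and Crhbp (4.78; 6.21 without C18 and C19) and Cort (4.41; 6.04) were also higher. With the glial score described further on as a covariate, 2 of the list were higher and 5 lower. Lower in PV were Cck, a peptide of both basket cells and pyramidal cells (45.1, 57.8 and 84.0 CPM, against 487, 575 and 684 CPM; -3.26), Lamp5 (-4.06) and Id2 (-3.93), with no overlap. The sum of these markers lay at 330 to 419 CPM in PV libraries, against 1194 to 1573 CPM in Camk2a libraries. Cck alone made up 487 to 684 CPM in Camk2a libraries, and Lamp5 is on the cortical layer list too. The sum is therefore not a measure of other interneurons alone.

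The 15 genes with the largest fold change upward, counting genes that averaged 5 CPM or more, had log2 fold changes between 5.09 (Lhx6) and 5.49 (Akr1c18). Beside Erbb4, Slc32a1, Gad1, Sox6, Lhx6 and Acan they included Akr1c18, Mybpc1, Tmem132c, Fam129a, Btbd11, Pde5a, Lrrc38 and Eya4. Akr1c18, which encodes an enzyme that inactivates progesterone, lay at 32.0, 44.0 and 50.4 CPM in PV libraries, against 0.0732, 0.247 and 3.60 CPM in Camk2a libraries (adjusted p = 3.94e-07). Mybpc1, known as a myosin-binding protein of slow skeletal muscle, lay at 96.5, 116 and 128 CPM, against 0.474, 0.785 and 11.4 CPM (5.42). Pde5a, which degrades cyclic GMP, lay at 122, 143 and 185 CPM, against 1.06, 1.52 and 16.5 CPM (5.19). Without C18 and C19 all 15 lay between 6.25 (Acan) and 7.65 (Tmem132c).

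The 15 largest changes downward included Ccn3 (-4.52), Tnnc1, Dkk3, Tmem215, Igfbp6, Wnt10a, Crym, Rgs14, Nptx2, Bhlhe22, Acvr1c, Spint2, Kcnv1 and Rprm (-4.16), and in each of these the highest PV library lay below the lowest Camk2a library. Dkk3, a secreted protein of the Dickkopf family, lay at 14.9, 27.0 and 33.4 CPM in PV libraries, against 439, 566 and 741 CPM in Camk2a libraries (-4.43). Rgs14, a regulator of G protein signalling known from hippocampal CA2 pyramidal cells, lay at 1.58, 3.83 and 4.96 CPM, against 51.8, 69.4 and 105 CPM (-4.33). Nptx2, a pentraxin that cells secrete at excitatory synapses, lay at 3.11, 8.02 and 14.3 CPM, against 86.1, 156 and 319 CPM (-4.32).

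Ion channels split by subunit. Of 39 voltage-gated potassium channel genes tested, 17 were higher in PV (13 at least 2-fold) and 18 lower (16 at least 2-fold), with a median log2 fold change of -0.20. The shares of all genes were 39.8% higher and 37.5% lower, and 18.6% and 14.2% at least 2-fold. The Kv3 subunits, which repolarise the spike fast enough for high firing rates, were higher with one exception among those named. Kcnc1 (Kv3.1; chr7:46396497-46438704) lay at 1475, 1756 and 2277 CPM in PV libraries, against 135, 165 and 328 CPM in Camk2a libraries (3.12, adjusted p = 1.42e-10). Kcnc2 (Kv3.2) lay at 714, 890 and 1097 CPM, against 53.9, 63.9 and 159 CPM (3.49). Kcnc4 (Kv3.4) was the exception at 5.81, 11.7 and 17.7 CPM, against 92.0, 127 and 145 CPM (-3.38). Classes did not overlap in any of the 3. The silent subunits, which form channels only together with others, went both ways: Kcns3 (4.14, and 4.86 without C18 and C19; 50.5, 57.2 and 70.9 CPM, against 1.29, 2.16 and 8.92 CPM) and Kcng4 (3.99, and 4.70) were higher, and Kcnv1 (-4.20) and Kcnf1 (-3.33) lower. Kcnh2, the ERG channel, rose (2.39), and Kcnh3 (-3.23) and Kcna4 of the A-type current (-3.19) fell. Of 23 other potassium channel genes, 6 were higher and 14 lower, beside 39.8% and 37.5% of all genes. The calcium-activated channel subunit Kcnmb2 was at 4.79 (7.00 without C18 and C19) and the inward rectifier Kcnj2 at -3.58. Kcnj10, the inward rectifier typical of astrocytes, was higher in PV (2.21).

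Sodium and HCN channels showed the same split, with 6 of 16 genes higher, 7 lower and a median near 0. These counts lay near the shares of all genes, 39.8% higher and 37.5% lower. Scn1a (Nav1.1) lay at 544, 635 and 733 CPM in PV libraries, against 133, 189 and 314 CPM in Camk2a libraries (1.72, adjusted p = 4.06e-09). Scn2a (Nav1.2) lay at 31.0, 71.8 and 87.3 CPM, against 436, 565 and 703 CPM (-3.04). Scn8a (Nav1.6) was 0.66 higher on the log2 scale, with overlap of libraries, and Scn3b, a beta subunit, fell by 2.99. Hcn2, which carries current activated by hyperpolarisation, lay at 256, 337 and 444 CPM, against 116, 135 and 157 CPM (1.33), without overlap. The FGF homologous factors, which modulate sodium channels, divided into Fgf12 (1.03) above and Fgf13 (-1.68) and Fgf14 (-1.39) below. Among 22 calcium channel genes, 6 were higher and 16 lower, with a median of -1.0. Cacna2d2 was 4.08 higher, and Cacna2d1, an alpha-2-delta subunit too, 3.74 lower, at 12.2, 21.3 and 30.6 CPM in PV libraries, against 265, 292 and 358 CPM in Camk2a libraries. Cacna1g, a T-type channel (-2.30), and the beta subunits Cacnb3 (-2.21) and Cacnb1 (-2.13) were lower, and Cacna1a, the P/Q-type channel of fast release, was 0.37 higher with overlap.

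**Figure D2:**
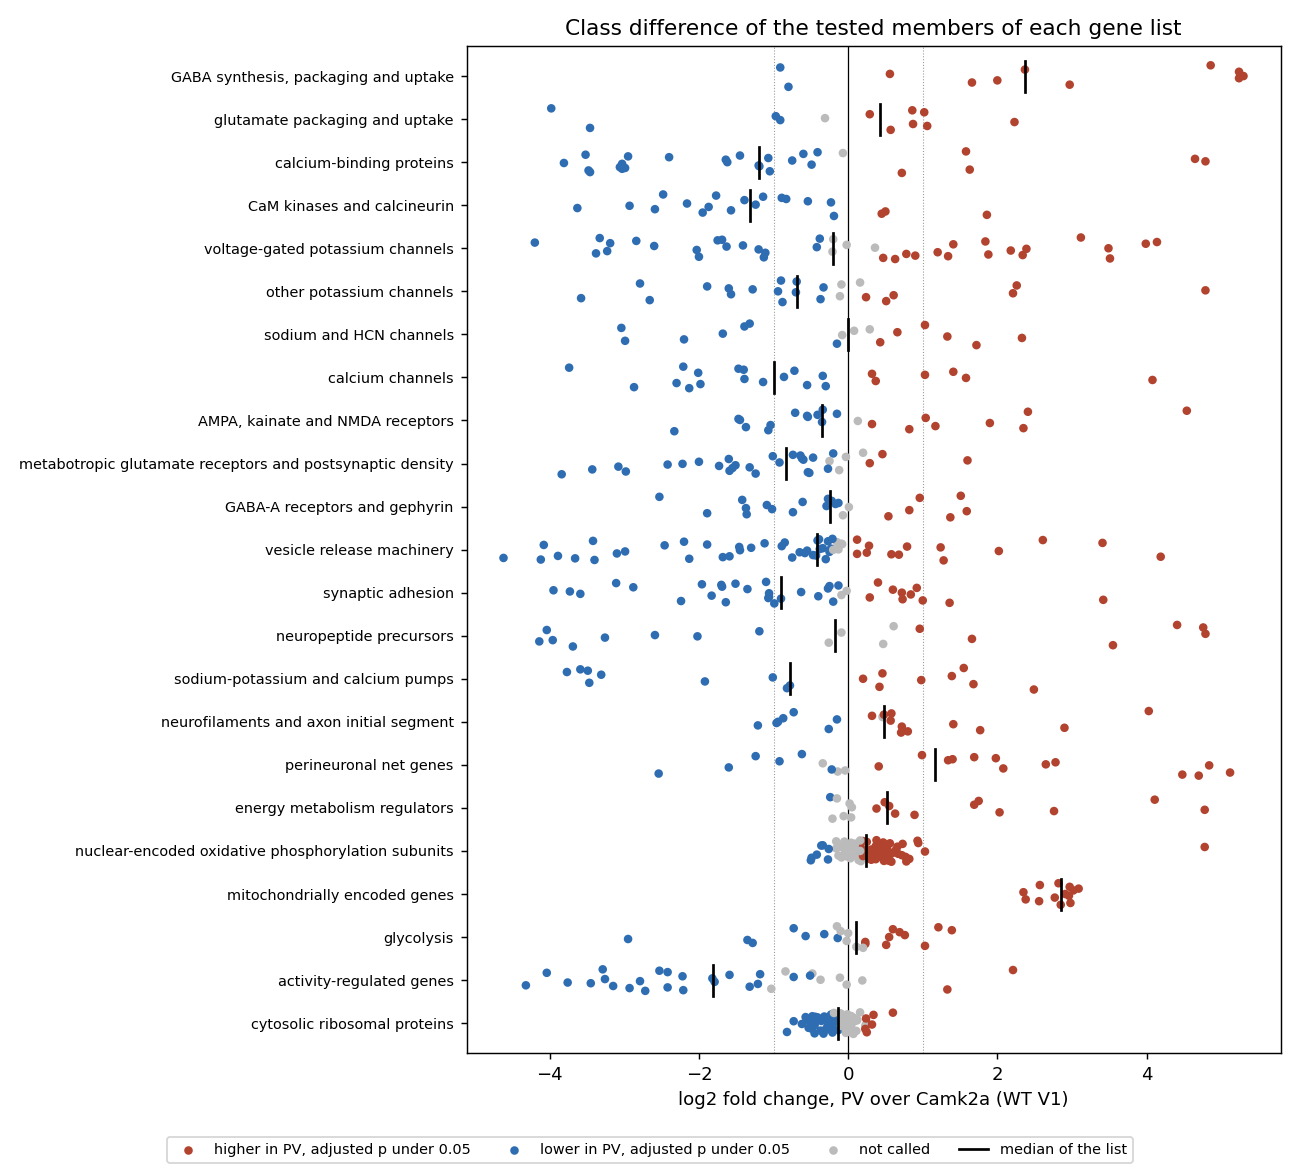
Log2 fold change (PV over Camk2a) of every tested member of 23 gene lists; each point is a gene, red if called higher in PV, blue if called lower and grey if not called, with the list's median as a black bar and dotted lines at 2-fold. Channel, receptor and vesicle lists spread over both sides, whereas all 13 mitochondrially encoded genes lay between 2.35 and 3.09.

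Glutamate receptors were lower more often than higher. Of 22 tested AMPA, kainate and NMDA receptor genes, 8 were higher and 13 lower, with a median log2 fold change of -0.35. The shares of all genes were 39.8% and 37.5%. Gria2, the subunit that keeps calcium out of AMPA receptors, lay at 178, 230 and 277 CPM in PV libraries, against 521, 571 and 773 CPM in Camk2a libraries (-1.37, adjusted p = 1.14e-10). Gria4 lay at 211, 228 and 266 CPM, against 81.0, 108 and 134 CPM (1.17). Grin2d, an NMDA receptor subunit with slow decay, lay at 80.6, 91.8 and 111 CPM, against 1.01, 2.52 and 12.0 CPM (4.54; 5.46 without C18 and C19), whereas Grin2b was 0.41 lower with overlap (adjusted p = 0.0059). Grik1, a kainate receptor subunit (2.35), and its auxiliary protein Neto2 (1.90) were higher, and the AMPA receptor auxiliary proteins Cnih3 (-2.33) and Cnih2 (-1.45) lower. Metabotropic glutamate receptors and postsynaptic density genes were lower in 25 of 32 and higher in 3, with a median of -0.83. Grm8 (-3.84) and Grm2 (-3.43), 2 receptors that inhibit release, and Homer1 (-2.42), a scaffold of the density, were lower without overlap. Grm5, which couples to Gq, was lower with overlap (-0.20, adjusted p = 0.0369, and 0.0503 without C18 and C19), and Iqsec1, an Arf exchange factor, was 1.60 higher.

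Receptors for GABA shifted between subunits. Of 22 tested, 6 were higher and 14 lower, with a median of -0.25. Gabra5 lay at 7.81, 9.81 and 19.5 CPM in PV libraries, against 34.2, 51.9 and 94.8 CPM in Camk2a libraries (-2.53, adjusted p = 7.42e-09), and Gabra2 was 1.89 lower. Gabrd, of extrasynaptic receptors, was higher (1.37), as was Gabrg3 (1.59), and the beta subunits split into Gabrb2 (0.82) above and Gabrb1 (-1.42) below. All 6 of these subunits kept the classes apart.

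Calcium handling was lower in PV for most genes. Calcium-binding proteins were lower in 21 of 27 and higher in 5 (median -1.20). Calb1, a calcium buffer like Pvalb, lay at 31.1, 62.9 and 88.5 CPM in PV libraries, against 144, 190 and 241 CPM in Camk2a libraries (-1.64, adjusted p = 4.98e-08). Hpcal4, a neuronal calcium sensor, fell by 3.48, and Kcnip1, which binds Kv4 channels, rose (4.79; 6.08 without C18 and C19). CaM kinases, calcineurin and their regulators were lower in 17 of 20 and higher in 3 (median -1.31). Camk4, the nuclear CaM kinase, lay at 5.88, 6.95 and 7.64 CPM, against 41.7, 51.3 and 85.1 CPM (-2.93). Ppp3ca, the catalytic subunit of calcineurin, lay at 551, 588 and 644 CPM, against 2334, 2570 and 3233 CPM (-2.16), and the calcineurin regulator Rcan2 was higher at 826, 986 and 1226 CPM, against 204, 269 and 356 CPM (1.86).

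The release machinery exchanged members of several families. Of 54 genes tested, 13 were higher in PV and 36 lower, with a median log2 fold change of -0.42. Syt2 (chr1:134646677-134762593) lay at 1186, 1356 and 1995 CPM in PV libraries, against 42.1, 59.3 and 183 CPM in Camk2a libraries (4.19, adjusted p = 1.01e-08; 4.72 without C18 and C19). Syt1, the calcium sensor of most forebrain synapses, lay at 1487, 1956 and 2109 CPM, against 2324, 2521 and 2665 CPM (-0.38). Vamp1, a vesicle SNARE, lay at 731, 916 and 1787 CPM, against 107, 137 and 234 CPM (2.61), and Vamp2 at 1089, 1210 and 1417 CPM, against 1501, 1763 and 1946 CPM (-0.55). Cplx1 (chr5:108518554-108550024), a complexin that clamps and triggers fusion, lay at 2654, 2894 and 4155 CPM, against 606, 710 and 963 CPM (2.02), and Cplx2 (chr13:54371349-54383917) at 363, 531 and 693 CPM, against 2210, 2391 and 2844 CPM (-2.20). Sv2a lay at 1349, 1572 and 1616 CPM, against 554, 629 and 715 CPM (1.28), and Sv2b at 32.6, 49.2 and 66.2 CPM, against 781, 832 and 909 CPM (-4.08, SE 0.0873, adjusted p = 4.01e-18). None of these 8 genes overlapped between the classes. Rab3b, a vesicle GTPase, was higher (3.41), and the calcium sensors Doc2a (-3.89) and Syt5 (-3.66) were lower.

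To compare levels between related genes, CPM were divided by the length of merged exons (CPM per kb). Merged exons join those of all annotated transcripts, so this length need not be that of the mRNA present. Cplx1 averaged 1431 ± 248 CPM per kb and Cplx2 108 ± 20.7 in PV libraries (SD, n = 10), against 340 ± 62.5 and 499 ± 48.3 in Camk2a libraries (n = 8). The ratio of Cplx1 to Cplx2 was 8.62, 13.3 and 23.0 (lowest, median and highest) in PV libraries, against 0.519, 0.639 and 0.957 in Camk2a libraries, so that the leading complexin differed between the classes in every library. Scn1a over Scn2a changed sides in the same way (8.78, 9.91 and 25.7 in PV, against 0.296, 0.387 and 0.563 in Camk2a). Gria4 over Gria2 lay at 2.04, 2.50 and 3.09, against 0.352, 0.396 and 0.595. Before the division by length, Gria4 and Gria2 overlapped in PV libraries, at 211 to 266 and 178 to 277 CPM. Their change of sides thus rests on merged exon lengths of 6305 and 15548 bases. Pvalb over Calb1 lay at 9.81, 34.7 and 106 in PV, against 0.0907, 0.136 and 1.63 in Camk2a, with C18 and C19 above 1 in the Camk2a group.

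By CPM per kb, the same gene led in both classes in most other pairs, at different ratios. Sv2a over Sv2b was 42.9, 58.4 and 83.3 in PV libraries, against 1.15, 1.34 and 1.56 in Camk2a libraries. Before the division by length, Sv2b lay above Sv2a in Camk2a libraries, at 781 to 909 and 554 to 715 CPM. Their order there thus rests on merged exon lengths of 8381 and 4636 bases. Ldhb over Ldha was 43.5, 54.9 and 94.5 in PV libraries, against 2.56, 2.86 and 3.91 in Camk2a libraries. Syt2 stayed below Syt1 in all but 1 PV library, at 0.688, 0.744 and 1.46, against 0.0175, 0.0264 and 0.0782. Vamp1 over Vamp2 was 0.244, 0.281 and 0.579, against 0.0233, 0.0265 and 0.0561. Grin2d over Grin2b was 0.603, 0.705 and 0.845, against 0.00447, 0.0142 and 0.0748, and Cox6a2 over Cox6a1 0.334, 0.418 and 0.484, against 0.00393, 0.00490 and 0.0549. Camk4 over Camk2a (0.0117, 0.0168 and 0.0211, against 0.0158, 0.0211 and 0.0278) overlapped between the classes. Ratios are descriptions with no test of their own, and estimated counts can move reads between related genes.

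**Figure D3:**
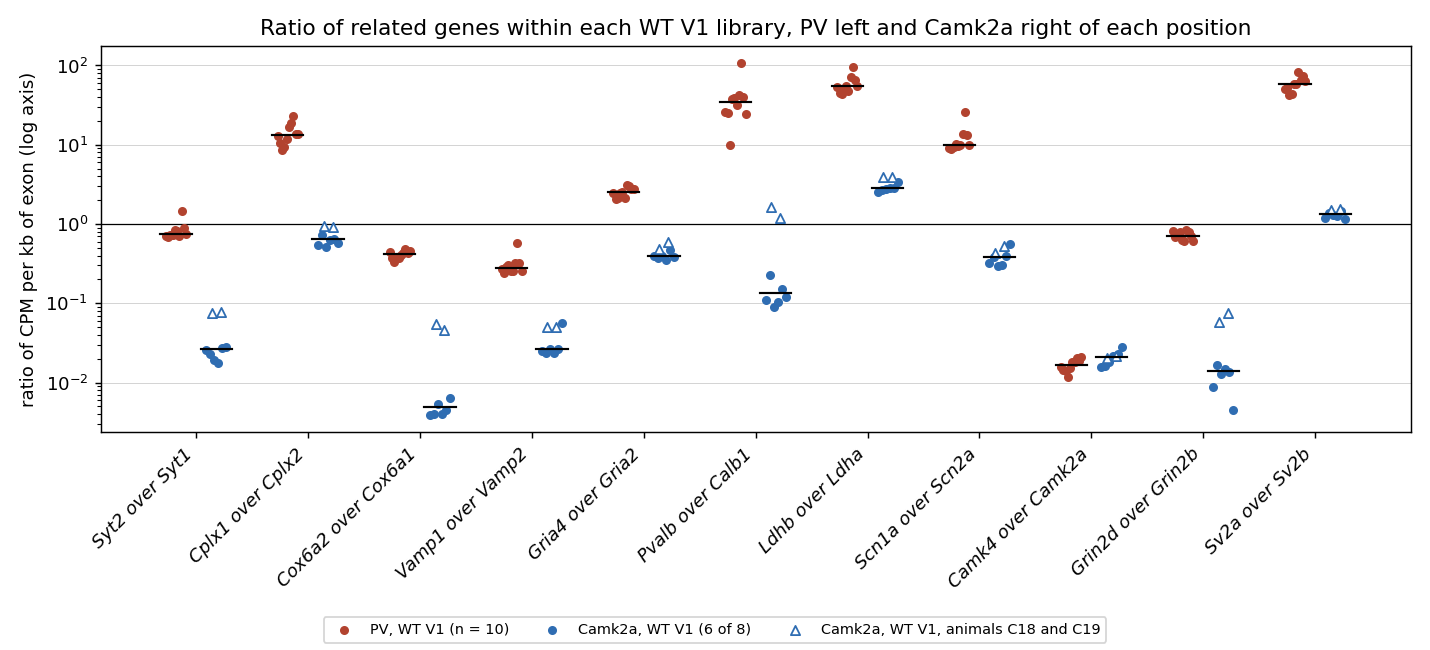
Ratio of CPM per kb of exon for 11 pairs of related genes within each WT V1 library, on a log axis with a line at 1; PV libraries are red and left of the Camk2a libraries in blue, C18 and C19 are open triangles, and black bars are medians. Cplx1 over Cplx2, Scn1a over Scn2a and Gria4 over Gria2 lay above 1 in all PV libraries and below 1 in all Camk2a libraries. For Gria4 over Gria2 in PV libraries and Sv2a over Sv2b in Camk2a libraries, the side of 1 depended on the exon lengths used.

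Pumps and exchangers that restore ion gradients differed by gene. Of 17 pump and exchanger genes, 8 were higher and 9 lower (median -0.78), beside 39.8% and 37.5% of all genes. Atp1b1, a beta subunit of the sodium pump, lay at 3578, 4056 and 5010 CPM in PV libraries, against 1857, 1984 and 2259 CPM in Camk2a libraries (0.98), without overlap. The calcium exporters Slc8a2 (-3.59) and Atp2b4 (-3.47) were lower and Slc8a3 (1.55) higher.

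Axonal genes were mixed: 11 of 19 neurofilament and axon initial segment genes were higher and 7 lower (median 0.48). The shares of all genes were 39.8% and 37.5%. Nefh, the heavy neurofilament, lay at 462, 530 and 962 CPM in PV libraries, against 55.1, 74.6 and 110 CPM in Camk2a libraries (2.90, adjusted p = 2.31e-11). The light and medium chains went the other way, Nefl at 392, 424 and 611 CPM, against 650, 862 and 1017 CPM (-0.94), and Nefm at 236, 284 and 535 CPM, against 392, 631 and 947 CPM (-1.21, with overlap). In all 3 chains P22 was the highest PV library. Ank1, an ankyrin, was 4.03 higher, at 782, 922 and 1274 CPM, against 33.4, 43.4 and 126 CPM, and Cntnap2, of the juxtaparanode, 1.77 higher.

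Regulators and isoforms of energy metabolism were higher in PV more often than lower. Of 18 tested, 11 were higher, 1, Nrf1, was lower (-0.24) and 6 did not pass, with a median of 0.52. Ppargc1a, the coactivator of mitochondrial genes, lay at 192, 228 and 273 CPM in PV libraries, against 40.6, 55.4 and 78.1 CPM in Camk2a libraries (2.03, adjusted p = 5.30e-11). Esrrg (chr1:187608791-188214885), an estrogen-related receptor that works with it, lay at 192, 220 and 282 CPM, against 23.9, 32.5 and 50.9 CPM (2.76), and Esrrb was 4.11 higher (4.83 without C18 and C19). Cox6a2 (chr7:128205435-128206387), the heart and muscle form of a cytochrome c oxidase subunit, lay at 52.4, 69.6 and 122 CPM, against 0.634, 0.841 and 10.2 CPM (4.78; 6.46 without C18 and C19). Cox6a1, the form of other tissues, lay at 151, 175 and 270 CPM, against 163, 175 and 191 CPM (0.02, adjusted p = 0.858). So the 2 forms differed: Cox6a2 kept the classes apart and Cox6a1 overlapped completely.

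Of 77 nuclear-encoded subunits of oxidative phosphorylation, 43 were higher, 7 lower and 27 not called, with a median log2 fold change of 0.24, and only Cox6a2 and Ndufs1 of complex I (1.03) passed 2-fold. Atp5b of the ATP synthase lay at 2043, 2225 and 2454 CPM in PV libraries, against 1054, 1154 and 1223 CPM in Camk2a libraries (0.94). All 13 mitochondrially encoded genes were higher, with a median of 2.85, but the spread among PV libraries was wide. Their sum lay at 9141, 34176 and 52689 CPM in PV libraries, against 3394, 4463 and 5387 CPM in Camk2a libraries. mt-Co2, a subunit of cytochrome c oxidase, lay at 973, 3099 and 4938 CPM, against 255, 332 and 466 CPM (3.09). These transcripts are translated by the ribosomes inside mitochondria, which hold no RPL22. With the glial score as a covariate, 1 of the 13 was called, and their median was 2.07.

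Glycolysis was split, with 10 of 23 genes higher and 7 lower (median 0.11), beside 39.8% and 37.5% of all genes. Ldhb, the lactate dehydrogenase subunit of oxidative tissue, lay at 1064, 1239 and 1626 CPM in PV libraries, against 497, 537 and 587 CPM in Camk2a libraries (1.21, adjusted p = 1.53e-11). Ldha, the subunit of glycolytic tissue, lay at 36.3, 47.9 and 61.6 CPM, against 314, 376 and 417 CPM (-2.95). The phosphofructokinase genes Pfkl (-1.35) and Pfkp (-0.73) were lower and Pkm, the muscle-type pyruvate kinase, was higher (0.69), at 2306, 2619 and 2996 CPM, against 1468, 1584 and 1664 CPM. All 5 kept the classes apart.

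Perineuronal net genes were higher in 13 of 22 and lower in 6, with a median of 1.17. Acan (chr7:79053483-79115099), which encodes the aggrecan core of the net, lay at 49.5, 61.2 and 107 CPM in PV libraries, against 0.272, 1.10 and 6.38 CPM in Camk2a libraries (5.12, adjusted p = 1.02e-07; 6.25 without C18 and C19). The link protein gene Hapln1 (4.70, and 6.24 without C18 and C19) and the proteases Adamts15 (4.84, and 6.04) and Adamts8 (4.48, and 5.16) were higher too. Bcan, which encodes brevican, lay at 85.5, 96.3 and 106 CPM, against 7.32, 14.8 and 21.4 CPM (2.78), whereas Ncan, which encodes neurocan, lay at 74.5, 101 and 113 CPM, against 259, 296 and 326 CPM (-1.60). Several of these proteins are also made by glia, and with the glial score as a covariate 8 members were higher and 5 lower, with a median of -0.37.

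Signalling peptides and factors divided by gene. Of 18 neuropeptide precursors, 6 were higher and 8 lower, beside 39.8% and 37.5% of all genes. Pnoc, the nociceptin precursor, lay at 15.1, 18.7 and 30.6 CPM in PV libraries, against 0.0989, 0.318 and 2.60 CPM in Camk2a libraries (4.79; 6.07 without C18 and C19). Lower were Grp (-4.14), Adcyap1, the precursor of PACAP (-3.96), and Penk, the enkephalin precursor (-3.69). Of 18 genes of neuregulin and neurotrophin signalling, 7 were higher and 9 lower, beside the same shares. Bdnf (chr2:109674700-109727007) lay at 1.50, 5.09 and 7.84 CPM, against 58.0, 81.4 and 119 CPM (-4.04, adjusted p = 1.87e-10). Met, the receptor of hepatocyte growth factor, was lower (-4.10). No library of one class overlapped the other in these 2 genes.

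Synaptic adhesion genes were lower in 25 of 37 and higher in 10 (median -0.90). Cntnap4, a neurexin relative, lay at 144, 173 and 199 CPM in PV libraries, against 9.49, 14.9 and 27.1 CPM in Camk2a libraries (3.42), and the secreted synaptic organisers Cbln1 (-3.95), Cbln2 (-3.59), Cbln4 (-3.11) and C1ql3 (-3.73) were lower. Among 11 gap junction genes, 7 were higher and 2 lower. Gjd2, the connexin 36 of interneurons coupled to each other, lay at 33.5, 40.2 and 50.3 CPM, against 0.766, 1.03 and 6.49 CPM (4.33; 5.42 without C18 and C19). Panx2, a pannexin, was 1.23 higher without overlap, while Panx1 (-0.34) and Gjd3 (-2.25, at or below 1.22 CPM) were lower with overlap, and Gjc1 (-0.40, adjusted p = 0.133) and the scaffold gene Tjp1 (-0.02, adjusted p = 0.872) did not pass. Gjb2 was 2.63 higher, with overlap. Gja1 (2.00), Gjb6 (2.06) and Gjc3 (1.86) are connexins of glia. With the glial score as a covariate their values were 0.68, 0.87 and -0.21, none of them called. Gja1 and Gjb6 are among the astrocyte markers averaged in the score, so the fall of their values was built into that fit. In the same fit Gjd2 was 5.82 (adjusted p = 0.0014).

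Activity-regulated genes were lower in 23 of 32 and higher in 2, with a median of -1.80, and both classes varied widely. With the glial score as a covariate, 25 were lower and none higher, with a median of -4.30. Their sum lay at 489, 1272 and 2072 CPM in PV libraries, against 4609, 5950 and 10519 CPM in Camk2a libraries. Egr3, an immediate early transcription factor, lay at 15.7, 46.0 and 69.4 CPM, against 289, 614 and 1100 CPM (-3.76, adjusted p = 1.40e-08), and Egr2 (-3.45) and Pcsk1, a prohormone convertase (-3.29), were lower too. Klf4 was higher with overlap (2.21). Fos did not pass (-0.48, adjusted p = 0.336). Among PV libraries P22 was lowest for the sum.

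Libraries of one class also differed among themselves. The SD of log2 CPM was 0.14 for the median gene with a mean of at least 50 CPM among PV libraries, and 0.11 among Camk2a libraries. The genes named in this paragraph were chosen after their spread was seen. Lars2, a mitochondrial leucyl-tRNA synthetase, varied most among PV libraries (SD 1.40), at 444, 4861 and 10148 CPM, followed by Fos (SD 1.39), at 3.77, 75.8 and 136 CPM. P22 was lowest for Fos and also for the activity-regulated genes Nr4a1, Fosl2 and Arc. Among Camk2a libraries Gad1 varied most (SD 1.94), with C19 highest, and Lars2 varied widely too (SD 1.56).

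Cytosolic ribosomal protein genes changed little: 37 of 79 were lower, 7 higher and none 2-fold, with a median of -0.13. Of 9 genes around FMRP, the protein lost in fragile X syndrome, Fmr1 (chrX:68678541-68717963) lay at 36.1, 44.9 and 48.8 CPM in PV libraries, against 74.3, 84.6 and 92.8 CPM in Camk2a libraries (-0.95, adjusted p = 6.43e-11). Its partners Cyfip1 (-0.93) and Cyfip2 (-0.87) were lower as well. Of its relatives, Fxr1 was 0.19 higher and Fxr2 at 0.01 did not pass. Caprin1, an RNA-binding partner, was 0.19 higher and Nufip1 0.19 lower, both with overlap, and Nufip2 did not pass (-0.01, adjusted p = 0.919). Rapgef4, the cAMP-activated exchange factor EPAC2, lay at 282, 300 and 328 CPM, against 192, 207 and 261 CPM (0.51).

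Markers of glia and vessels moved with the classes. Astrocyte markers were higher in PV in 14 of 19 and lower in 2 (median 1.68), oligodendrocyte markers in 16 of 17 (median 1.60), their precursors in 9 of 10 (1.98), microglia in 12 of 15 with 2 lower (2.29) and vascular markers in 10 of 14 with 1 lower (2.17). Levels were low for the defining genes: Gfap lay at 3.65, 9.20 and 14.1 CPM in PV libraries, against 1.21, 2.07 and 3.39 CPM in Camk2a libraries (2.03), and Aqp4 at 2.04, 5.60 and 7.22 CPM, against 1.27, 1.54 and 2.12 CPM (1.76). Pdgfra of precursors was 2.30 higher (2.42 to 7.06 CPM, against 0.737 to 1.46 CPM), Cx3cr1 of microglia 2.18 (1.81 to 5.79 CPM, against 0.474 to 1.14 CPM) and Cldn5 of endothelium 1.68 (0.996 to 3.73 CPM, against 0.221 to 0.742 CPM). Aqp4 overlapped between the classes, and no defining marker named here was at 0 in any library.

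Some members of the glial lists differed from the rest. Mbp of myelin, on a list with 16 of 17 genes higher, lay at 147, 223 and 341 CPM in PV libraries, against 163, 239 and 268 CPM in Camk2a libraries (0.01, adjusted p = 0.952). Slc1a3 (2.23) was higher, and Aldh1l1 (-1.84) and Slc1a2 (-0.97), 2 other astrocyte genes, lower. The summed markers were 955 to 1441 CPM in PV libraries, against 982 to 1297 CPM in Camk2a libraries, for astrocytes; 422 to 1057 CPM, against 280 to 450 CPM, for oligodendrocytes; 37.1 to 64.9 CPM, against 22.7 to 25.5 CPM, for microglia; and 19.1 to 67.0 CPM, against 11.1 to 16.9 CPM, for vessels. Summed red blood cell markers were at 0.497 to 30.9 CPM, against 0.662 to 4.12 CPM, and all 3 globin genes tested, Hba-a1 (2.21), Hba-a2 (2.01) and Hbb-bs (2.75), were higher with overlap. Their calls were lost with limma-voom (1.74, 0.59 and 1.89) and with the glial score as a covariate, where all 3 changed sign (-3.04, -0.97 and -1.47).

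A glial score, the mean log2 CPM of the astrocyte, oligodendrocyte and microglia markers, was 2.17 to 3.37 in PV libraries, against 1.12 to 1.60 in Camk2a libraries. The ranges did not meet, so the score and the class cannot be fully told apart in a fit. With the score as a covariate 6838 genes were called, 3359 higher and 3479 lower. All 14 PV markers were higher in that fit (median 5.55), as were 21 of the shared interneuron genes, and 20 excitatory genes were lower (median -4.20). Of the glial lists, 5 astrocyte, 1 oligodendrocyte and 1 microglia markers were called higher, and 2, 2 and 1 lower. The score averages the genes of these same lists, so the loss of their calls was built into the fit. Fewer genes were called on most other lists too: 7 higher and 8 lower of the GABA receptor genes, 11 and 23 of the release machinery, 5 and 8 of the AMPA, kainate and NMDA receptor genes, 6 and 6 of the other potassium channels, 4 and 11 of the calcium channels, 3 and 6 of the neuropeptide precursors, and none and 7 of the ribosomal protein genes. Nuclear-encoded oxidative phosphorylation genes were higher in 46 and lower in none (median 0.64). Besides the globin genes and Gjc3, the called genes Slc6a13 (-1.68), Gjb2 (-1.19), Klf4 (-1.11), Gfap (-0.80), Aqp4 (-0.23) and Cldn5 (-0.25) changed sign and were not called. Calb2 (1.38), Cort (3.86), Gls2 (0.31), Grin2b (-0.46), Grm5 (-0.47), Vamp2 (-0.36), Nefl (-0.51), Nefm (-0.40), Nrf1 (-0.36), mt-Co2 (1.37), Panx1 (-0.14), Gjd3 (-2.10), Caprin1 (0.24) and Nufip1 (-0.21) were no longer called. Slc1a3 (0.38), Pdgfra (0.16) and Cx3cr1 (0.67) were not called either. The part of glial RNA in each single gene's difference was not tested.

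**Figure D4:**
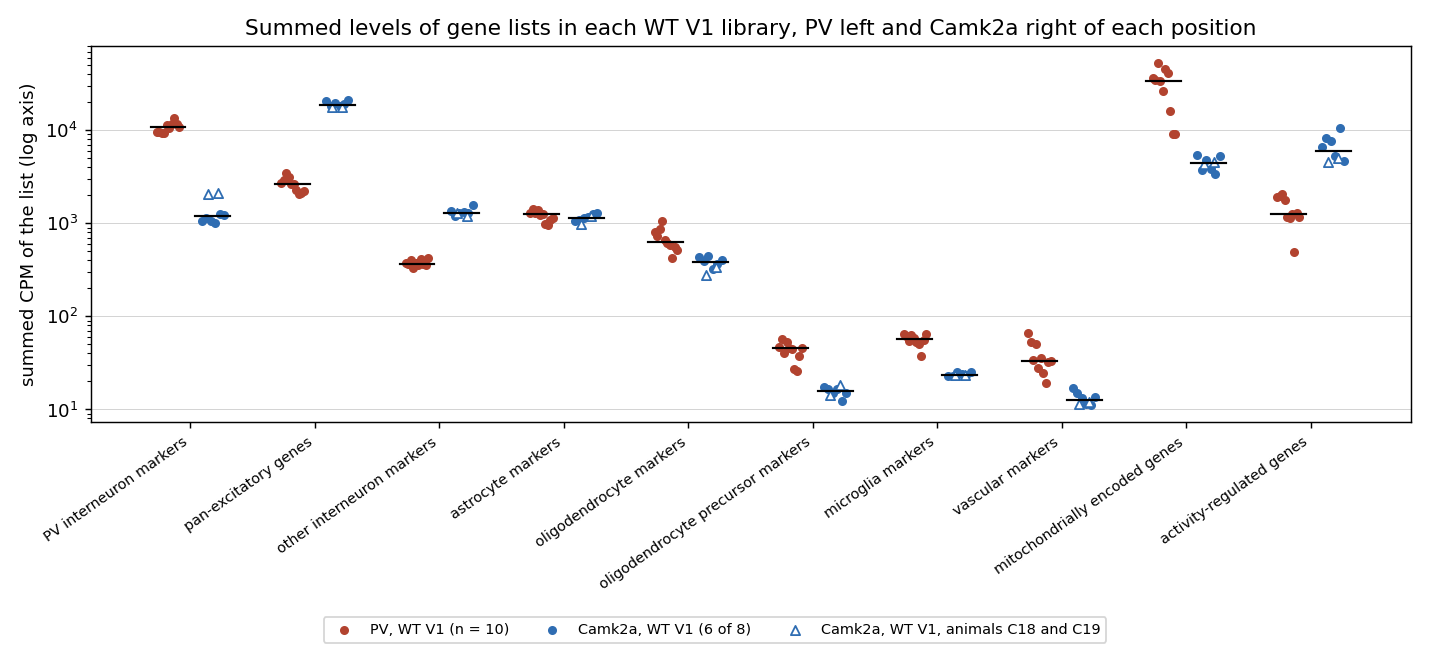
Summed CPM of 10 gene lists in each WT V1 library on a log axis, with PV libraries in red left of the Camk2a libraries in blue, C18 and C19 as open triangles and medians as black bars. PV markers and excitatory genes kept the classes apart, astrocyte sums overlapped, and mitochondrially encoded genes ranged from 9141 to 52689 CPM among PV libraries.

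The same contrast was made in V1 of Fmr1 knockout (KO) mice with the same Cre and Rpl22HA/HA alleles, 10 PV and 6 Camk2a libraries that share no animal with the WT groups. Fmr1 itself was low in every KO library, at 7.75 to 15.1 CPM in PV and 6.63 to 10.8 CPM in Camk2a. Of 16788 genes tested, 6434 (38.3%) were higher in PV and 6033 (35.9%) lower. Of the 5293 genes with a 2-fold call in WT that were tested in KO, 5102 (96.4%) were called in KO in the same direction. A single gene, Arhgef33, was called in the opposite one, at -1.08 in WT and 0.89 in KO (adjusted p = 0.0020 and 0.0323, edgeR's quasi-likelihood test), at or below 0.592 CPM in every library, and was named for that reason. All 14 PV markers were again higher (median 5.30) and 21 of 21 excitatory genes lower (-3.73). In WT the PV marker median was 4.42 with Camk2a libraries C18 and C19 and 5.49 without them. Pvalb had a log2 fold change of 6.29 in KO, Syt2 4.95, Cox6a2 6.0, Acan 5.01, Sv2b -4.23 and Slc17a7 -3.73. Nuclear-encoded oxidative phosphorylation genes were higher in 63 of 77 and lower in 1 in KO (median 0.42). The difference between genotypes was not tested here.

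Whether the class difference in V1 differed from that in primary somatosensory cortex (S1) was tested across 36 WT libraries of both areas with limma-voom and the animal as a random block. Of 17044 genes, 994 (5.83%) were called, 476 with a larger value in V1 and 518 with a smaller one, and in 211 the V1 and S1 differences had opposite signs. This count depended on the setting: 299 without the animal block, 2036 without animal C24 (the one animal with an S1 library of batch 2), and 1574 without P22, C18 and C19. Adjusted p-values of this paragraph are from that limma-voom fit, which made more false calls on simulated data than its nominal rate. No PV marker and no shared interneuron gene was called, with Syt2 at 4.34 in V1 and 4.31 in S1 and Gad1 at 6.34 and 6.31. Of 21 excitatory genes, 8 had a larger and 1 a smaller value in V1, with Slc17a7 at -3.52 in V1 and -4.06 in S1 (V1 minus S1 0.55, adjusted p = 0.0131) and Camk2a at -2.64 and -3.03 (0.39, adjusted p = 0.0304). Atp1b1 was at 0.98 and 1.25 (-0.27, adjusted p = 0.0188). These 3 genes were no longer called without the animal block. Gabra5 was at -2.44 and -1.53 (-0.91, adjusted p = 0.0151).

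The smallest p-values toward V1 belonged to Slc40a1, the iron exporter ferroportin (1.23 in V1, -0.24 in S1; difference 1.47, adjusted p = 5.56e-04), Ndrg2 (0.62), Fmod (1.62), Tgfa (1.44) and Rims3, of the release site (0.69). Toward S1 they included those of Ptges3 (-0.40), Ndufab1 (-0.85), Hnrnpa0 (-0.48) and Sema3e, a guidance factor (-0.22 in V1, 1.40 in S1; -1.62). Slc40a1, Tgfa, Ptges3, Hnrnpa0 and Sema3e had opposite signs in the 2 areas. Of 77 nuclear-encoded oxidative phosphorylation genes, 10 were called, all with a lower value of PV minus Camk2a in V1, among them Ndufab1 of complex I at 0.49 in V1 and 1.35 in S1. Of 19 astrocyte markers, 4 were called, all with a higher value of PV minus Camk2a in V1: Slc1a3 (2.19 in V1, 1.53 in S1), Gja1 (2.04, 1.33), Mlc1 (2.30, 1.64) and Slc1a2, which was lower in PV in both areas (-1.03, -1.62).

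**Figure D5:**
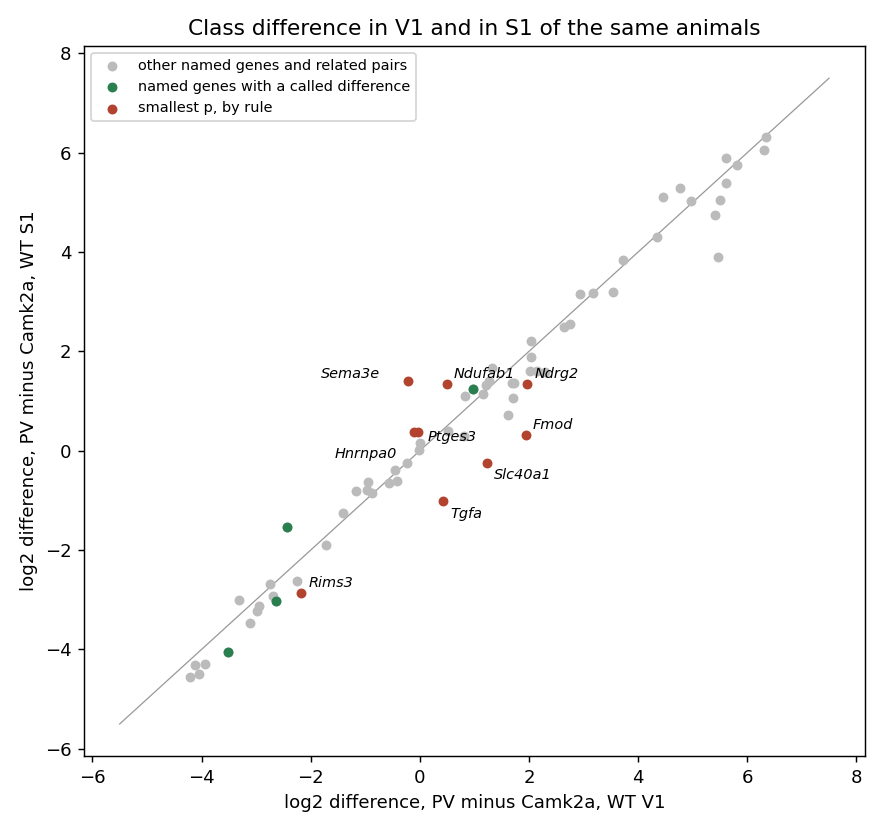
Log2 difference PV minus Camk2a in V1 (horizontal axis) and in S1 (vertical axis) of WT mice for the named genes and related pairs; the line marks equal differences, red points are 9 genes with the smallest p-values of the difference between areas, and green points are other named genes called. Most points lay near the line, whereas Sema3e, Ptges3 and Hnrnpa0 were above 0 in S1 only and Slc40a1 and Tgfa above 0 in V1 only. The astrocyte markers called between areas are not drawn.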

How the data were processed

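Cortical V1 was dissected from brain slices, tagged ribosomes were pulled down with an anti-HA antibody and libraries were made with the Ovation RNA-Seq System V2, per the labels' protocols. The deposited table holds the authors' estimated counts per gene; STAR, Salmon, limma and mm10 are named in the submitters' processing notes, with no role or version stated. Values were rounded before the count tests, and 20 rows without a gene symbol stayed in the fit but are named nowhere. One sample was 1 animal's V1. PV and Camk2a libraries were compared with edgeR 4.0.16 (R 4.3.3): TMM scaling, filterByExpr, labelled sex as a covariate, robust quasi-likelihood test, Benjamini-Hochberg adjustment, threshold 0.05. DESeq2 1.42.0 and limma-voom (limma 3.58.1), other scaling, no filter, other sex terms, a glial covariate and libraries left out were the alternatives. CPM used TMM-scaled totals. The comparison of areas used limma-voom with the animal as a random block (correlation 0.224). Both fits were tested on simulated data, on which the block fit made more false calls than its nominal rate.

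The members and gene lists were chosen with earlier results of these data known. Named genes were all marker and pair genes listed for this comparison, up to 5 called members per direction in each list (mean of at least 1 CPM; all members of lists of up to 12), the 15 largest changes per direction (mean of at least 5 CPM) and, between areas, the 5 smallest p-values per direction. Zeb2, Npas1, Emx2, Fos, Lars2, Nr4a1, Fosl2, Arc and Arhgef33 were named after their values were seen. Promoter windows came from RefSeq, GRCm38.p6, matched by symbol for 11542 of 16330 genes, and gene coordinates from GENCODE for mm10. Totals of 33750544 to 43314220 counts per library set the precision, and no pair of libraries agreed within sampling noise. Some genes that the rule selects are not reported here.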

Additional observations from a re-analysis of the deposited data

Results flagged for a closer look

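Of 178 sets of 8 or 10 libraries (named genes and list sums), 21 held a library far from the others of its group; chance gives about 1 in 20. PV library P22 accounted for 8 of them. It was highest for Syt2 (1995 CPM, others at most 1609), Vamp1 (1787, others at most 1187), Nefl (611, others at most 471), Nefm (535, others at most 294), Nefh (962, others at most 577) and summed gap junction genes (385, others at most 349), and lowest for Syt1 (1487, others at least 1779) and summed microglia markers (37.1, others at least 50.8). In other PV libraries, Nrgn was high in P3 (556 CPM, others at most 300.0), Cldn5 in P1 (3.73, others at most 2.25) and summed red blood cell markers in P4 (30.9, others at most 13.5).

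Among Camk2a libraries C24 was highest for Camk4 (85.1 CPM, others at most 59.9), Rapgef4 (261, others at most 214) and the sums of other interneuron markers (1573), voltage-gated potassium channels (6985), sodium and HCN channels (4159) and calcium channels (3767). Cux2 was lowest in C15 (213 CPM, others at least 310.0), energy regulators in C20 (3135) and Mbp in C18 (163, others at least 219), and red blood cell markers were highest in C18 (4.12).

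The class difference differed between V1 and S1 by a test of that difference for 13 genes among the listed marker and pair genes and those with the smallest p-values. That fit made more false calls on simulated data than its nominal rate. The astrocyte markers called in it are given above and are not among the 13. Camk2a, Slc17a7 and Atp1b1 were no longer called without the animal block. V1 minus S1 was 0.39 for Camk2a, 0.55 for Slc17a7, 1.47 for Slc40a1, 0.62 for Ndrg2, 1.62 for Fmod, 1.44 for Tgfa and 0.69 for Rims3 on the log2 scale. It was -0.27 for Atp1b1, -0.91 for Gabra5, -0.40 for Ptges3, -0.85 for Ndufab1, -0.48 for Hnrnpa0 and -1.62 for Sema3e.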

How the results depend on the processing

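Leaving out each library in turn gave 12267 to 12659 genes called in WT V1 and 5166 to 5520 with a fold of at least 2. The other fits of that contrast gave 12568 to 13420 calls, except 6838 with the glial score as a covariate. Without C18 and C19, 5625 genes passed 2-fold. In KO V1 the alternatives gave 12499 (RLE), 12582 (DESeq2) and 12557 (no sex term) calls. The class by area count of 994 became 299 with no animal block, 2036 without C24, 1574 without P22, C18 and C19, and 842 with no sex term; with no animal block Camk2a (0.39), Slc17a7 (0.55) and Atp1b1 (-0.27) were no longer called. No paired analysis was possible for PV against Camk2a because each library is a different animal and the groups share no replicate numbers.

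With the glial score as a covariate the sign changed for Xist (-4.61), Ddx3y (3.13), Zeb2 (-0.19), Npas1 (-0.76), Slc6a13 (-1.68), Gjb2 (-1.19), Gjc3 (-0.21), Klf4 (-1.11), Nufip2 (0.55), Gfap (-0.80), Aqp4 (-0.23), Cldn5 (-0.25), Mbp (-1.21), Hba-a1 (-3.04), Hba-a2 (-0.97), Hbb-bs (-1.47), Tgfa (-0.75), Ptges3 (0.13), Hnrnpa0 (0.22) and Sema3e (0.95). Ddx3y also changed to 4.94 (limma-voom), 1.12 (no sex term) and 0.25 (sex from RNA), and lay between -3.68 and 1.01 with a library left out. Values near 0 crossed it: Cox6a1 (-0.02 with no filter, -0.01 without P22, -0.03 to 0.05 with a library left out), Tjp1 (0.01 without P22, -0.09 to 0.01), Fxr2 (0.00 with RLE and DESeq2, -0.02 with no filter, -0.01 without C18 and C19, -0.01 to 0.03), Nufip2 (-0.08 to 0.04), Ptges3 (0.01 with no sex term) and Mbp (-0.01 with RLE and DESeq2, -0.03 with no filter, -0.02 with no sex term, -0.09 without C18 and C19, -0.06 to 0.09). Calls of the 3 globin genes were lost with limma-voom (1.74, 0.59 and 1.89). DESeq2 gave no adjusted p for 8 named genes. The cause of these changes was not tested.

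Genes below 1 CPM rest on few reads, and their folds are the least certain. Estimated counts can divide reads among related genes and do not separate overlapping genes.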
